A study of Mus musculus with 12 samples.

Results

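Solute carriers are membrane proteins that move nutrients, ions, metals and metabolites across cell and organelle membranes, and 180 probe sets on the arrays analysed here carried a single gene symbol of this family. They stood for 146 genes, out of 8251 genes named by 10833 probe sets with 1 symbol. Members were taken by symbol alone, as Slc followed by a number and a letter, and Slc1a2, Slc1a3, Slc2a2, Slc4a1, Slc27a2 and Slc34a1 were left out. The rule itself used no signal, but it was set with earlier results of these data known. The genes were sorted by substrate into 9 classes of transporters. Slc66a2 was left unclassified, and Slc4a1ap, Slc9a3r1 and Slc9a3r2, whose products bind carriers or other proteins but do not transport, were kept apart.

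A single adult NMR-1 mouse gave all the tissue, namely liver, cerebral cortex and cerebellum, and the labels name no treatment. RNA of each tissue was amplified in either of 2 ways: 3 linear amplifications from 1 ng (3X, 3 technical replicates per tissue, made with the RiboAmp HS kit), or 1 linear amplification from 5 µg by the manufacturer's standard protocol (1X, 1 array per tissue). Input, kit and rounds of amplification changed together and cannot be told apart. All 12 arrays were of the type MG_U74Av2, and with 1 animal the p-values cover technical spread alone.

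Signals are on the log2 scale, differences are given as log2 values with the standard error (SE) of the fit, and called means an adjusted p under 0.05. These signals carry no detection call, so where 1 side is dim the difference does not measure how many times more RNA there was. In bulk tissue, fewer cells of a type and less RNA per cell cannot be told apart. The array medians lay between 3.45 and 3.48, and 93 of the 180 members had a mean signal below the median of 3.46 for all 12422 probe sets tested. The tissues carried their own markers at 3X: 8 of 8 hepatocyte genes were called higher in liver, 5 of 8 neuronal genes lower in liver, 4 of 5 cortical genes higher in cortex and 5 of 7 cerebellar genes higher in cerebellum. The median SD of the members over 3 arrays was 0.125 in 3X liver, 0.0971 in 3X cortex and 0.0916 in 3X cerebellum.

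Hepatocytes take up bile acids, amino acids, metals and organic ions from portal blood, and their mitochondria exchange the intermediates of the urea cycle and of fat synthesis with the cytosol. Neurons instead depend on carriers that load transmitters into vesicles, clear them from the synapse and set intracellular chloride. Many further carriers, such as those for nucleotide sugars in the Golgi or zinc in the secretory pathway, serve nearly every cell.

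The carriers with the largest difference in each direction between liver and brain at 3X were Slc10a1, the sodium-coupled importer of bile acids on hepatocytes, and Slc25a4, the ADP/ATP exchanger of the inner mitochondrial membrane. The promoters of this pair are shown to set their base composition side by side, from 250 bases before to 50 bases after the start, as RefSeq gives them on GRCm38.p6. That of Slc10a1, at chr12:80968656-80968955 on the minus strand, is the first of 2 starts listed for the gene. That of Slc25a4 lies at chr8:46211013-46211312 on the minus strand. Capitals mark TATAAA (letters of the TATA box), CAAAGT (letters within the site read by the hepatic factor HNF4A) and GGGCGG (letters of the GC box). Each was searched on both strands, so that TTTATA is TATAAA on the other strand. The search took any place in the window, whatever its distance from the start.
Slc10a1: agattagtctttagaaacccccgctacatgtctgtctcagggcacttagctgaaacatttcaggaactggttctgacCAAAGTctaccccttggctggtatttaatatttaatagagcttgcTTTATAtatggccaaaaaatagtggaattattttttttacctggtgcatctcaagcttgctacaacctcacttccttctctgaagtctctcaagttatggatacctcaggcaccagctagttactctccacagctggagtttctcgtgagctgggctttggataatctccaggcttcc
Slc25a4: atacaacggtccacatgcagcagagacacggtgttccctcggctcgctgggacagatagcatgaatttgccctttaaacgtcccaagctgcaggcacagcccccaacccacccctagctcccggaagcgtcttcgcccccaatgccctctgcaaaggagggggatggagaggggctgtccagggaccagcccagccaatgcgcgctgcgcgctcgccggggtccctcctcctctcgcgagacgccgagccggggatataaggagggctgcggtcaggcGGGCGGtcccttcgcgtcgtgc
The Slc10a1 window had 43% G and C, 2 CG pairs, 1 TATAAA and 1 CAAAGT, and no GGGCGG. The Slc25a4 window had 65.7% G and C, 25 CG pairs and 1 GGGCGG, and neither of the other motifs. RefSeq's table held a promoter for 120 of the 146 genes. A gene was counted if the window of any start listed for it held the motif, so genes with several starts had more chances of a match. TATAAA was found for 4 of 17 carrier genes called higher in liver, 1 of 14 of those called lower, 12 of all 120 carriers and 15.7% of all genes in the table. For CAAAGT the counts were 6 of 17, 3 of 14 and 21 of 120, against 16.1% of all genes. GGGCGG was in 11 of 17, 10 of 14 and 86 of 120, against 38.2% of all genes. These matches are a description of letters, not of bound sites.

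At 3X, 21 of the 180 probe sets (11.7%) were called higher in liver than in the mean of both brain regions, against 8.17% of all probe sets. A further 18 (10%) were called lower in liver, against 12.3% of all probe sets. The median difference was 0.02 for the carriers and 0.01 for all probe sets. Counted by gene, with the brightest probe set standing for each, 19 of 146 rose in liver and 18 fell. By size alone, 9 probe sets (5.0%) were at least 2-fold higher in 3X liver, against 2.33% of all, and 7 (3.89%) at least 2-fold lower, against 3.17% of all. On the 1X arrays, with 1 array a tissue and no test, 23 (12.8%) were at least 2-fold higher in liver, against 6.54% of all, and 13 (7.22%) at least 2-fold lower, against 6.65% of all. Mitochondrial carriers gave 5 of the genes called higher in liver, and carriers of amino acids, peptides and amines gave 5 of those called lower.

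**Figure D1:**
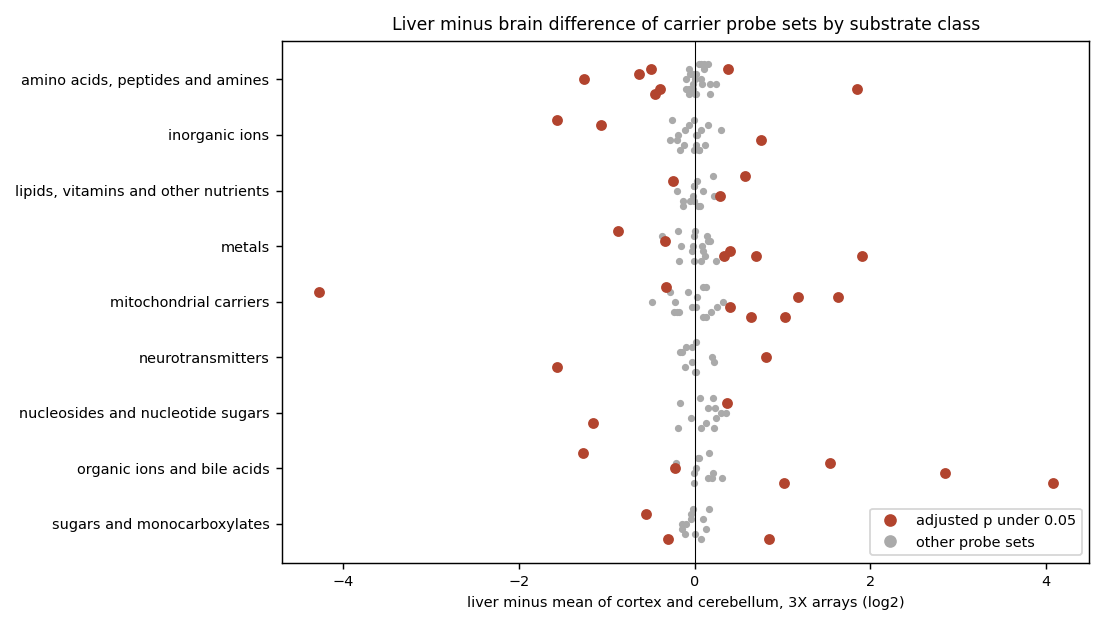
Liver minus brain difference of each carrier probe set at 3X (log2, x axis) by substrate class (rows), with called probe sets in red and others in grey; a point is 1 probe set. Most points lie near 0 in every class, Slc25a4 stands alone at -4.28 and the probe sets of Slc10a1 reach 4.08.

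Among 15 genes for organic ions and bile acids, 3 were called higher in liver and 2 lower. Slc10a1 on probe set 100339_at had signals of 6.02, 5.67 and 6.97 in 3X liver, against 2.03, 2.29 and 2.24 in 3X cortex and 2.14, 2.24 and 1.89 in 3X cerebellum. Its 1X signals were 6.84 in 1X liver, against 2.31 in 1X cortex and 2.06 in 1X cerebellum. The liver and brain arrays were far apart in both procedures, with a 3X difference of 4.08 ± 0.23 (SE, adjusted p = 4.77e-07) and a 1X difference of 4.66. Probe set 100341_g_at gave 2.85 ± 0.34 (SE, adjusted p = 0.000157) at 3X and 6.30 at 1X. Its 3X liver arrays ran widely, at 6.20, 4.10 and 5.48, against 8.31 on the 1X liver array. The remaining probe set, 100340_at, stayed between 2.26 and 2.69 on all 12 arrays and was not called (0.20, adjusted p = 0.159).

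Slc22a18, an organic cation carrier encoded in an imprinted region, had 8.14, 7.91 and 8.02 in 3X liver, against 5.85, 6.03 and 5.98 in 3X cortex and 7.04, 6.82 and 7.15 in 3X cerebellum. Liver exceeded brain by 1.54 ± 0.091 (SE, adjusted p = 6.55e-07) at 3X and by 2.41 at 1X. The 3 tissues did not overlap, with cerebellum between liver and cortex. Slc22a30, of the organic anion group, was higher by 1.02 ± 0.29 (SE, adjusted p = 0.0285), but 3X liver replicate 3, at 6.02, stood above replicates 1 and 2, at 4.54 and 4.42. Without 3X cortex replicate 1 the call was lost (adjusted p = 0.0622). On the 1X arrays it had 7.41 in 1X liver, against 3.78 in 1X cortex and 3.78 in 1X cerebellum.

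Slc22a17, the brain form of the organic cation family that also serves as a receptor for lipocalin 2, went the other way. It had 5.37, 4.86 and 4.93 in 3X liver, against 6.40, 6.59 and 6.33 in 3X cortex and 6.26, 6.16 and 6.19 in 3X cerebellum. The difference was -1.26 ± 0.11 (SE, adjusted p = 1.87e-05) at 3X and -3.70 at 1X, with no overlap of liver and brain arrays. Slc22a12, the urate exchanger of kidney, was lower in liver by a small step, with a difference of -0.22 ± 0.069 (SE, adjusted p = 0.0447). That call was lost without 3X liver replicate 2 (adjusted p = 0.172). Slc51a, the alpha subunit of the bile acid exporter of the gut, had 10.11, 10.20 and 9.96 in 3X liver, against 9.85, 9.81 and 9.84 in 3X cortex and 10.11, 9.79 and 9.87 in 3X cerebellum. Its groups overlapped and it was not called (0.21, adjusted p = 0.126).

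**Figure D2:**
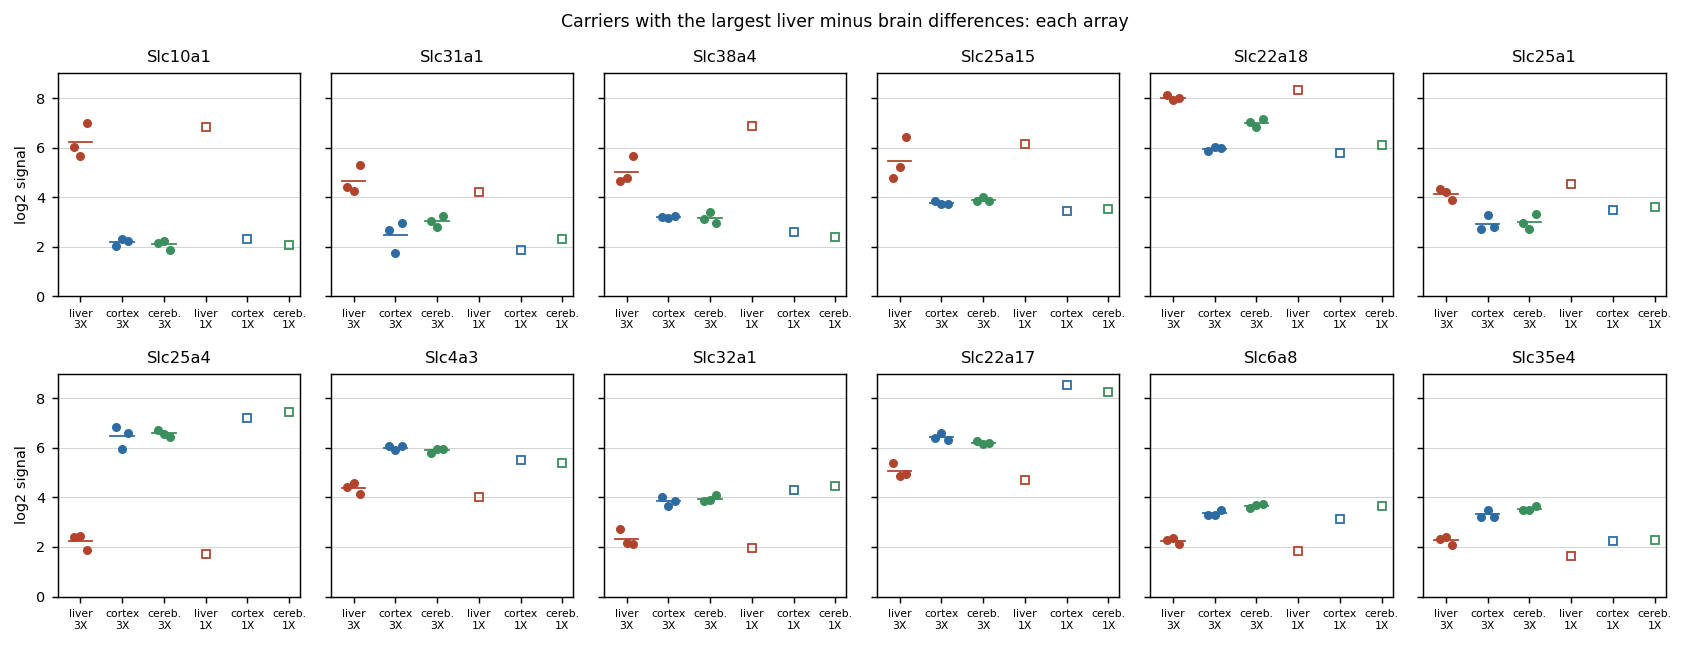
Log2 signal (y axis) on every array for 12 carriers with the largest liver minus brain differences, the 6 higher in liver above and the 6 lower below; filled points are 3X replicates with a line at their mean, and open squares the single 1X arrays. Liver arrays stand apart from both brain regions in each panel at 3X, and 3X liver replicate 3 is the highest of its group for Slc10a1, Slc31a1, Slc38a4 and Slc25a15.

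Amino acid, peptide and amine carriers had 2 of 23 genes called higher in liver and 5 called lower. Slc38a4, a sodium-coupled neutral amino acid importer of liver, had 4.65, 4.79 and 5.65 in 3X liver, against 3.20, 3.16 and 3.22 in 3X cortex and 3.12, 3.40 and 2.95 in 3X cerebellum. At 1X it had 6.87 in 1X liver, against 2.58 in 1X cortex and 2.37 in 1X cerebellum. Liver was higher by 1.85 ± 0.19 (SE, adjusted p = 5.02e-05) at 3X and by 4.39 at 1X, the brain arrays being brighter and the liver arrays dimmer at 3X. Slc7a2, a cationic amino acid carrier, was higher by 0.38 ± 0.11 (SE, adjusted p = 0.039), a call that was lost without 3X liver replicate 1 (adjusted p = 0.166).

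Of the genes lower in liver, Slc6a8, the creatine importer, had the largest difference. Its probe set 95625_at had 2.30, 2.35 and 2.11 in 3X liver, against 3.31, 3.28 and 3.48 in 3X cortex and 3.56, 3.69 and 3.74 in 3X cerebellum. That is a difference of -1.26 ± 0.083 (SE, adjusted p = 1.77e-06) with no overlap, against -1.53 at 1X, while the gene's second probe set (97748_at) was not called (0.11, adjusted p = 0.398). Slc6a6, the taurine importer, was lower in liver on probe set 97383_at, with a difference of -0.63 ± 0.093 (SE, adjusted p = 0.000712) at 3X. Its 1X arrays ran in the opposite direction, with 3.45 in 1X liver, against 3.07 in 1X cortex and 3.06 in 1X cerebellum, and its other probe set (94405_at) was not called (-0.07).

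The other genes lower in liver moved by smaller steps. Slc15a2, a proton-coupled peptide importer, differed by -0.50 ± 0.13 (SE, adjusted p = 0.0185), a call that was lost without 3X liver replicate 1 (adjusted p = 0.0566). Slc3a2, the heavy chain that carries several amino acid exchangers to the membrane, had 2.52, 2.51 and 2.71 in 3X liver, against 3.05, 2.98 and 3.07 in 3X cortex and 2.89, 2.98 and 3.20 in 3X cerebellum and differed by -0.45 ± 0.086 (SE, adjusted p = 0.00387). Slc1a4, a neutral amino acid exchanger, differed by -0.39 ± 0.074 (SE, adjusted p = 0.00346) with no overlap of liver and brain. For Slc7a5, the light chain that pairs with the Slc3a2 product, the 3X difference was 0.01 (adjusted p = 0.971) and the 1X difference -1.01. Slc7a11, the cystine and glutamate exchanger, had a 3X difference of 0.01 (adjusted p = 0.95).

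Mitochondrial carriers had 5 of 20 genes called higher in liver and 2 lower. Slc25a15, the ornithine carrier of the urea cycle, had 4.76, 5.21 and 6.41 in 3X liver, against 3.83, 3.71 and 3.73 in 3X cortex and 3.84, 4.01 and 3.84 in 3X cerebellum. It was higher by 1.63 ± 0.28 (SE, adjusted p = 0.00165) at 3X and by 2.66 at 1X, and replicate 3 again stood above the other liver arrays. Slc25a1, the citrate carrier that exports carbon for fat synthesis, was higher on probe set 162358_i_at, with 4.33, 4.20 and 3.88 in 3X liver, against 2.70, 3.27 and 2.79 in 3X cortex and 2.94, 2.72 and 3.31 in 3X cerebellum. The difference there was 1.18 ± 0.16 (SE, adjusted p = 0.000425), whereas probe set 94807_at gave 0.02 (adjusted p = 0.887) at 3X and 1.29 at 1X.

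Slc25a47, a carrier found mainly in hepatocyte mitochondria, had 5.49, 5.34 and 5.97 in 3X liver, against 4.65, 4.66 and 4.60 in 3X cortex and 4.46, 4.40 and 4.63 in 3X cerebellum, a difference of 1.03 ± 0.12 (SE, adjusted p = 0.000155). At 1X the difference was 2.78. Slc25a39, which brings glutathione into mitochondria, was higher by 0.64 ± 0.15 (SE, adjusted p = 0.0109), and Slc25a45 by 0.40 ± 0.084 (SE, adjusted p = 0.00608). Slc25a20, which exchanges acylcarnitine for carnitine in fatty acid oxidation, reached 0.32 (adjusted p = 0.0528) at 3X and 1.59 at 1X. Slc25a10, the dicarboxylate carrier, gave 0.25 (adjusted p = 0.143) at 3X and 1.88 at 1X.

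Slc25a4 had 2.41, 2.45 and 1.89 in 3X liver, against 6.85, 5.96 and 6.61 in 3X cortex and 6.73, 6.56 and 6.46 in 3X cerebellum. Its 1X signals were 1.73 in 1X liver, against 7.19 in 1X cortex and 7.46 in 1X cerebellum. Liver lay below brain by -4.28 ± 0.19 (SE, adjusted p = 6.63e-08) at 3X and by -5.60 at 1X, with the liver signals dim throughout. The paralog Slc25a5, the ADP/ATP exchanger of many other tissues, was called on none of its 3 probe sets, with differences of -0.17, -0.02 and -0.22. The suffixes f and r of the second and the third mark shared or less specific probes, so paralogs may share signal there. Slc25a14, a brain carrier of the uncoupling protein group, differed by -0.33 ± 0.076 (SE, adjusted p = 0.012) at 3X and -1.29 at 1X. Without 3X liver replicate 2 that call was lost (adjusted p = 0.0586).

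Metal carriers had 3 of 16 genes called higher in liver and 2 lower. Both probe sets of Slc31a1, the copper importer, were called. On 101877_at the signals were 4.43, 4.24 and 5.29 in 3X liver, against 2.67, 1.74 and 2.95 in 3X cortex and 3.04, 2.81 and 3.23 in 3X cerebellum, a difference of 1.91 ± 0.28 (SE, adjusted p = 0.000629). On 103845_at they were 5.80, 6.01 and 6.16 in 3X liver, against 5.31, 5.18 and 5.24 in 3X cortex and 5.47, 5.32 and 5.21 in 3X cerebellum, a difference of 0.70 ± 0.093 (SE, adjusted p = 0.000301). The 1X differences of these probe sets, 2.11 and 2.10, lay close together. Among zinc importers of the ZIP group, smaller rises were seen: Slc39a9 by 0.40 ± 0.087 (SE, adjusted p = 0.00774) without overlap, and Slc39a8 by 0.34 ± 0.10 (SE, adjusted p = 0.0371) with liver and brain arrays overlapping. The Slc39a8 call was lost without 3X liver replicate 1 (adjusted p = 0.155). The Slc39a9 difference at 1X was -0.02.

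Slc39a6, another zinc importer, was lower in liver, with 3.02, 3.15 and 3.09 in 3X liver, against 3.85, 3.36 and 4.17 in 3X cortex and 3.90, 4.01 and 4.43 in 3X cerebellum and a difference of -0.87 ± 0.17 (SE, adjusted p = 0.00375). Slc30a3 loads zinc into the synaptic vesicles of cortical neurons. Its probe set 102683_at had 8.03, 7.79 and 7.76 in 3X liver, against 8.11, 8.46 and 8.13 in 3X cortex and 8.20, 8.17 and 8.06 in 3X cerebellum, and on the 1X arrays 7.59 in 1X liver, against 8.92 in 1X cortex and 7.69 in 1X cerebellum. The 3X difference of liver and brain was -0.33 ± 0.099 (SE, adjusted p = 0.0379), lost without 3X liver replicate 2 (adjusted p = 0.132), and the second probe set (161395_i_at) was not called (0.15). All liver signals of 102683_at were far above the array medians.

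Carriers of lipids, vitamins and other nutrients had 2 of 14 genes called higher in liver and 1 lower. Slc27a5, a bile acid CoA ligase and fatty acid carrier of hepatocytes, had 6.64, 7.03 and 7.19 in 3X liver, against 6.26, 6.45 and 6.25 in 3X cortex and 6.54, 6.45 and 6.30 in 3X cerebellum. At 1X it had 9.51 in 1X liver, against 5.63 in 1X cortex and 5.47 in 1X cerebellum. The groups did not overlap at 3X, and the difference of 0.58 ± 0.12 (SE, adjusted p = 0.00526) stood beside 3.96 at 1X. Slc46a1, the proton-coupled folate importer, was higher by 0.29 ± 0.079 (SE, adjusted p = 0.0262), a call lost without 3X liver replicate 2 (adjusted p = 0.104). Slc44a4, a choline-like carrier, differed by -0.25 ± 0.070 (SE, adjusted p = 0.0301) on 96761_at, and without 3X liver replicate 1 the adjusted p was 0.0861. The second probe set of Slc44a4 (162285_r_at) was not called, and as a mean per gene the call was lost (-0.11, adjusted p = 0.252). Slc23a2, the vitamin C importer of brain and other organs, was not called at 3X (-0.00, adjusted p = 0.989), beside -0.81 at 1X.

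Among 12 genes for sugars and monocarboxylates, 1 was called higher in liver and 2 lower. Slc37a4 carries glucose 6-phosphate into the endoplasmic reticulum for the last step of glucose release, and had 5.81, 5.47 and 6.25 in 3X liver, against 4.94, 5.05 and 4.92 in 3X cortex and 5.03, 5.04 and 5.02 in 3X cerebellum. Liver was higher by 0.85 ± 0.14 (SE, adjusted p = 0.00134) at 3X and by 2.42 at 1X. Slc50a1, a sugar carrier, was lower in liver, with a difference of -0.55 ± 0.11 (SE, adjusted p = 0.00387). Slc2a8, an intracellular hexose carrier, differed by -0.30 ± 0.074 (SE, adjusted p = 0.0159) on 101397_at, a call lost without 3X liver replicate 2 (adjusted p = 0.0541). The second probe set of Slc2a8 (161555_f_at) was not called (0.07). Slc2a1, the glucose carrier of the blood-brain barrier, had 9.50, 9.58 and 9.30 in 3X liver, against 9.51, 9.59 and 9.49 in 3X cortex and 9.58, 9.53 and 9.61 in 3X cerebellum and was not called (-0.09, adjusted p = 0.482). Neither probe set of Slc2a3, the neuronal glucose carrier, was called at 3X (-0.05 on 93804_at and -0.14 on 92292_at), with -1.06 and -0.69 at 1X.

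Nucleoside and nucleotide sugar carriers had 1 of 13 genes called in each direction. Slc35d1, which brings UDP-glucuronic acid into the endoplasmic reticulum, had 5.89, 6.05 and 6.17 in 3X liver, against 5.61, 5.64 and 5.85 in 3X cortex and 5.66, 5.70 and 5.57 in 3X cerebellum and 8.31 in 1X liver, against 5.92 in 1X cortex and 5.99 in 1X cerebellum. The difference was 0.37 ± 0.086 (SE, adjusted p = 0.0124) at 3X and 2.35 at 1X. Slc35e4, whose substrate is not known, had 2.31, 2.40 and 2.09 in 3X liver, against 3.20, 3.51 and 3.23 in 3X cortex and 3.47, 3.50 and 3.64 in 3X cerebellum, a difference of -1.16 ± 0.098 (SE, adjusted p = 1.14e-05) against -0.63 at 1X. For Slc29a1, an equilibrative nucleoside carrier, probe set 95733_at gave 0.23 (adjusted p = 0.131) at 3X and 1.48 at 1X.

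Inorganic ion carriers had 1 of 19 genes called higher in liver and 2 lower. Slc26a1, a sulfate and oxalate exchanger of liver and kidney, had 4.13, 3.95 and 3.89 in 3X liver, against 3.34, 3.39 and 3.32 in 3X cortex and 3.14, 3.17 and 3.07 in 3X cerebellum, a difference of 0.76 ± 0.073 (SE, adjusted p = 2.98e-05) with 0.71 at 1X. Slc4a3, the chloride and bicarbonate exchanger of neurons and heart, had 4.43, 4.57 and 4.16 in 3X liver, against 6.06, 5.90 and 6.08 in 3X cortex and 5.80, 5.95 and 5.96 in 3X cerebellum. Liver lay below brain, with a difference of -1.57 ± 0.098 (SE, adjusted p = 1.09e-06) at 3X and -1.43 at 1X. Slc12a2, which imports sodium, potassium and chloride, had 1.29, 1.39 and 1.34 in 3X liver, against 2.05, 1.96 and 2.09 in 3X cortex and 2.61, 2.86 and 2.86 in 3X cerebellum, a difference of -1.07 ± 0.079 (SE, adjusted p = 4.13e-06) and -1.14 at 1X. Slc12a5, the neuronal potassium and chloride exporter, was not called (-0.11, adjusted p = 0.534).

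Of 10 neurotransmitter carriers, 1 was called in each direction. Slc32a1, which loads GABA and glycine into synaptic vesicles, had 2.71, 2.15 and 2.14 in 3X liver, against 4.0, 3.67 and 3.86 in 3X cortex and 3.87, 3.90 and 4.09 in 3X cerebellum. Its 1X signals were 1.96 in 1X liver, against 4.31 in 1X cortex and 4.45 in 1X cerebellum, and the differences were -1.57 ± 0.13 (SE, adjusted p = 1.24e-05) at 3X and -2.42 at 1X. Slc6a13, a GABA and taurine importer of liver and the meninges, was higher in liver, with 5.45, 5.53 and 5.64 in 3X liver, against 4.54, 4.67 and 4.54 in 3X cortex and 4.72, 4.93 and 4.96 in 3X cerebellum and a difference of 0.81 ± 0.081 (SE, adjusted p = 3.76e-05). At 1X the Slc6a13 difference was 1.88. The plasma membrane carriers Slc6a2 for noradrenaline, Slc6a3 for dopamine and Slc6a4 for serotonin, whose neurons have their cell bodies outside cortex and cerebellum, had 3X differences of 0.20, -0.10 and -0.03 and were not called. Slc1a1 and Slc1a6, glutamate importers of neurons and of Purkinje cells, had -0.17 and -0.09 at 3X, beside -1.20 and -0.72 at 1X. The Slc1a1 values are those of 104747_at, and its second probe set (104748_s_at) had -0.03 at 3X and -0.06 at 1X. The binding proteins Slc9a3r1, Slc9a3r2 and Slc4a1ap and the unclassified Slc66a2 were not called.

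Of the 29 carrier genes with several probe sets, 1 was called on all of them in the comparison of liver with brain (Slc31a1), 7 on some of them and 21 on none. 3X liver replicate 3 was the highest liver array in 12 of the 21 probe sets called higher and the lowest in 10 of the 18 called lower. Without it, 24 were called higher and 17 lower. The summed log2 signal of the hepatocyte list ran from 72.9 to 78.9 over the 3X liver arrays and was 82.4 at 1X. The neuronal list summed to between 37.7 and 42.0 in 3X liver, against 32.9 in 1X liver. Of 10 genes of the kidney list, which took in Napsa and Hsd3b2 with earlier results known, 1 was called higher in liver and 3 lower. Of the blood list, 1 of 2 was called lower. The part of this in the carriers' differences was not tested.

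Other transport genes were counted in the same fit, with the brightest probe set standing for each. Over all probe sets, counted singly, 8.17% were called higher in liver and 12.3% lower. Of 25 ABC transporter genes, 6 were called higher in liver and 1 lower. All 3 Na,K-ATPase subunits measured, the beta subunits Atp1b1, Atp1b2 and Atp1b3, were called lower in liver. No alpha subunit was among the genes measured. Of 6 aquaporins, 2 were higher and 1 lower, and of 3 organic anion transporters of the Slco group 1 was lower.

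Cortex and cerebellum were set against each other in the same fit of 9 arrays. With limma, 2 of the 180 carrier probe sets (1.11%) were called lower in cortex, against 0.628% of all probe sets, and 0 were called higher, against 0.435% of all. At an unadjusted p under 0.05, 15 carrier probe sets (8.33%) were lower in cortex, against 4.38% of all, and 4 (2.22%) higher, against 4.22% of all. The median difference was -0.01 for the carriers, against 0.01 for all probe sets. Slc22a18 had 5.85, 6.03 and 5.98 in 3X cortex, against 7.04, 6.82 and 7.15 in 3X cerebellum, a difference of -1.05 ± 0.10 (SE, adjusted p = 0.000647) with no overlap. Slc12a2 had 2.05, 1.96 and 2.09 in 3X cortex, against 2.61, 2.86 and 2.86 in 3X cerebellum, a difference of -0.74 ± 0.091 (SE, adjusted p = 0.00225), again with no overlap. At 1X they had 5.78 and 2.00 in cortex, against 6.09 and 2.87 in cerebellum. Slc12a2 was dim throughout, with a mean signal of 2.05 over the 12 arrays, at percentile 0.2 of all probe sets.

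In a fit of all 12 arrays Slc22a18 was no longer called (-0.87, adjusted p = 0.0618), whereas Slc12a2 was (-0.77, adjusted p = 0.000399). With the 6 cortex and cerebellum arrays alone, Slc39a7, a zinc carrier of the endoplasmic reticulum, was called too (-0.44, adjusted p = 0.0219). Without 3X liver replicate 3, 4 were called, adding Slc39a7 and Slc25a39. These names came after their values were seen.

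Markers of other cell types moved in the same comparison. Of 10 kidney genes measured out of 13 listed, 5 (Kap, Miox, Umod, Napsa and Hsd3b2) were called lower in cortex than in cerebellum. Napsa and Hsd3b2, with the largest of these differences (-3.43 and -2.54), were listed with earlier results of these data known. The count and the sums of the list rest partly on that choice. The summed log2 signal of the 10 was 35.8 to 36.8 in 3X cortex, 46.3 to 47.3 in 3X cerebellum and 39.5 to 39.9 in 3X liver. At 1X the sum was 33.7 in cortex, against 49.6 in cerebellum, with 35.5 in liver. Napsa, a kidney and lung protease, had 2.37, 2.61 and 2.35 in 3X cortex, against 5.68, 5.85 and 6.10 in 3X cerebellum. Single members of brain and blood lists were called lower in cortex as well, namely Mbp among 5 oligodendrocyte genes (-1.36, adjusted p = 0.000583), Aldoc among 5 astrocyte genes (-0.78, adjusted p = 0.0013), Nefm among 8 neuronal genes (-1.13, adjusted p = 0.00343) and Hba-a1 of 2 blood genes (-0.99, adjusted p = 0.00502). The oligodendrocyte list summed to 25.9 to 26.5 in 3X cortex, against 27.9 to 28.6 in 3X cerebellum, and the astrocyte list to 20.25 to 20.32 in 3X cortex, against 22.1 to 22.2 in 3X cerebellum. The neuronal list summed to 55.9 to 57.8 in 3X cortex, against 56.2 to 57.3 in 3X cerebellum, and the blood list to 10.7 to 11.2 in 3X cortex, against 12.0 to 12.1 in 3X cerebellum. None of these lists, and none of the choroid plexus, meningeal, endothelial and immune lists, had a member called higher in cortex. The part of these markers in the differences of Slc22a18 and Slc12a2 was not tested.

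**Figure D3:**
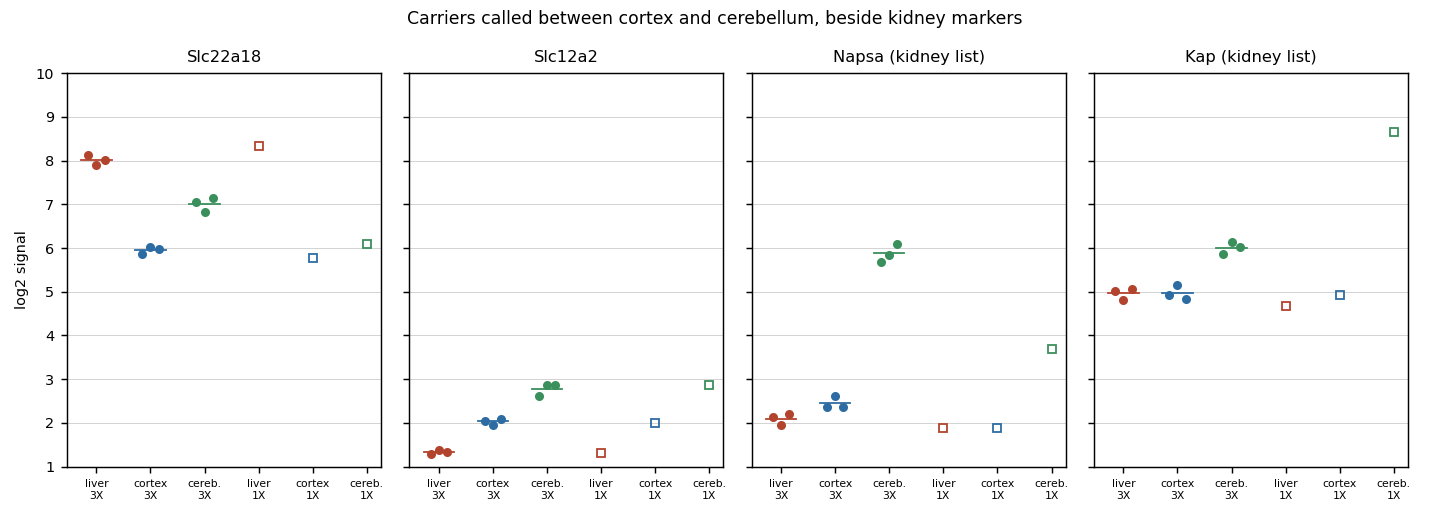
Log2 signal (y axis) on every array for Slc22a18 and Slc12a2 and for Napsa and Kap from the kidney list; filled points are 3X replicates with a line at their mean, and open squares the 1X arrays. Cerebellum lies above cortex in all 4 panels at 3X and at 1X. Napsa was put on the kidney list with earlier results of these data known.

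At 1X, 1 carrier probe set (0.556%) was at least 2-fold higher in cortex, against 0.628% of all, and 3 (1.67%) at least 2-fold lower, against 0.829% of all. The probe set higher in cortex was Slc30a3, at 8.92 in 1X cortex, against 7.69 in 1X cerebellum. Slc1a6 had 5.41 in 1X cortex, against 6.54 in 1X cerebellum. Slc38a2 on probe set 94433_at had 3.34, against 4.49, and Slc6a9, a glycine importer, 2.65, against 3.67. None of these was called at 3X, where the differences were 0.09 for Slc30a3, -0.24 for Slc1a6, -0.19 for Slc38a2 and 0.01 for Slc6a9.

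The 3X and 1X procedures were compared over all 12 arrays with tissue in the model. At 3X, 54 carrier probe sets (30.0%) were called higher, against 37.5% of all probe sets, and 23 (12.8%) lower, against 19.5% of all. The median shift was 0.08 for the carriers and 0.12 for all probe sets, so signs near 0 have to be read against that shift. Inorganic ion carriers had 10 of 19 genes higher and 2 lower, and amino acid carriers 9 of 23 higher and 2 lower. Mitochondrial carriers had 3 of 20 genes higher and 7 lower.

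The largest fall exceeded the largest rise. Slc25a25, a calcium-sensitive carrier of ATP and phosphate in mitochondria, had 3.70, 3.55 and 3.57 at 3X against 5.28 at 1X in liver, 3.73, 3.25 and 3.60 against 4.63 in cortex, and 3.30, 3.44 and 3.73 against 5.20 in cerebellum. It was lower at 3X, with a difference of -1.50 ± 0.14 (SE, adjusted p = 1.17e-05). Slc38a2, an amino acid importer induced by starvation, had 2.60, 2.71 and 2.80 at 3X against 4.21 at 1X in liver, 2.66, 2.59 and 2.64 against 3.34 in cortex, and 2.82, 2.79 and 2.83 against 4.49 in cerebellum on probe set 94433_at, a difference of -1.30 ± 0.14 (SE, adjusted p = 3.18e-05). Cortex had the smallest fall of the tissues. The 3 other probe sets of Slc38a2, all with an r suffix, were not called, with 0.19, -0.03 and -0.01.

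Opposite calls between probe sets occurred in 2 genes. Slc38a10, an amino acid carrier, was lower at 3X on 160414_at, with 6.78, 6.81 and 7.02 at 3X against 8.46 at 1X in liver, 6.62, 6.55 and 6.83 against 7.79 in cortex, and 6.66, 6.49 and 6.58 against 7.92 in cerebellum, a difference of -1.35 ± 0.096 (SE, adjusted p = 2.01e-06). On 161710_r_at it was higher, by 0.49 ± 0.089 (SE, adjusted p = 0.00106). Slc39a1, a zinc importer, differed by -0.75 ± 0.12 (SE, adjusted p = 0.000548) on 96832_at and by 0.46 ± 0.077 (SE, adjusted p = 0.000642) on 100373_at. The other probe sets named here as lower at 3X had differences of -0.95 for Slc35d1, -0.71 for Slc35a1, -0.64 for Slc9a3r1, -0.64 for Slc35b1, -0.58 for Slc25a5 on 100618_f_at, -0.56 for Slc3a2, -0.52 for Slc25a1 on 162358_i_at and -0.49 for Slc25a11. The Slc25a1 call was lost without the 1X cortex array (adjusted p = 0.0556) or the 1X cerebellum array (adjusted p = 0.0685). For Slc25a5, 100617_at and 100619_r_at were not called (-0.23 and 0.28), and the call was lost as a mean per gene (-0.18, adjusted p = 0.0592). With the 3 tissues as units, the calls were lost for Slc35d1 (adjusted p = 0.205), Slc35a1 (adjusted p = 0.0847) and Slc9a3r1 (adjusted p = 0.0538). Slc35a1 carries CMP-sialic acid into the Golgi, Slc35b1 carries nucleotides into the endoplasmic reticulum and Slc25a11 exchanges oxoglutarate for malate.

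Slc25a51, which brings NAD into mitochondria, had the largest rise, on probe set 161951_f_at. Its signals were 3.49, 3.72 and 4.33 at 3X against 2.97 at 1X in liver, 4.16, 3.91 and 4.39 against 3.02 in cortex, and 4.43, 4.66 and 4.46 against 3.19 in cerebellum, a difference of 1.11 ± 0.16 (SE, adjusted p = 0.000277). The probe set without a suffix, 97410_at, was not called (-0.11). Slc35e4 was higher at 3X by 0.99 ± 0.12 (SE, adjusted p = 6.25e-05), from signals of 2.31, 2.40 and 2.09 at 3X against 1.63 at 1X in liver, 3.20, 3.51 and 3.23 against 2.23 in cortex, and 3.47, 3.50 and 3.64 against 2.29 in cerebellum. Slc39a4, a zinc importer, was higher by 0.78 on 162284_r_at, and its 97320_at was not called (-0.30). Further called rises were 0.69 for Slc12a5, 0.63 for Slc38a5, 0.63 for Slc6a4 on 161695_f_at, 0.62 for Slc11a1, 0.56 for Slc12a3, 0.55 for Slc25a45, 0.54 for Slc26a2, 0.54 for Slc6a6 on 94405_at and 0.53 for Slc10a3. Of these, Slc38a5 imports glutamine and related amino acids, Slc11a1 exports metals from phagosomes, Slc12a3 is the sodium and chloride importer of the distal kidney tubule and Slc26a2 imports sulfate. As a mean per gene the Slc6a6 call was lost (0.10, adjusted p = 0.478), and with the 3 tissues as units the Slc10a3 call was lost (adjusted p = 0.0514). Of the 29 genes with several probe sets, 3 had the same call on all, 15 a call on some and 9 none.

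The shift between procedures differed among tissues in 35 carrier probe sets of 35 genes (19.4%), against 10.4% of all probe sets. For this test the spread of the single 1X arrays was taken to equal that of the 3X replicates. Liver was above brain at 1X in 22 of the 35 and below it in 13. At 3X the liver minus brain difference was less positive in all 22, or had turned negative (as for Slc6a6, at -0.63 at 3X and 0.39 at 1X), and less negative or positive in all 13. The 35 were chosen for a change between procedures and then split by their sign at 1X. That choice favours the direction seen, so these counts are partly set by it. Slc27a5 had the largest F (F = 104.08, adjusted p = 2.92e-05), with 3X minus 1X differences of -2.55 in liver, 0.69 in cortex and 0.97 in cerebellum. Slc35d1 (F = 66.07, adjusted p = 0.000106) had -2.27 in liver, -0.22 in cortex and -0.35 in cerebellum. Liver was lower at 3X in both, while the brain regions were higher at 3X for Slc27a5 and lower by a smaller step for Slc35d1.

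Slc22a17 (F = 57.16, adjusted p = 0.000175) showed the reverse, with 0.36 in liver, -2.11 in cortex and -2.06 in cerebellum. Slc39a4 on 97320_at (F = 46.69, adjusted p = 0.000323) had -1.31 in liver, 0.18 in cortex and 0.22 in cerebellum, from 5.84, 5.58 and 5.67 at 3X against 7.01 at 1X in liver, 5.53, 5.42 and 5.41 against 5.27 in cortex, and 5.39, 5.45 and 5.54 against 5.24 in cerebellum. Slc6a15, a neutral amino acid importer of neurons (F = 38.98, adjusted p = 0.000611), had 5.28, 5.08 and 5.08 in 3X liver, against 5.08, 5.15 and 5.31 in 3X cortex and 5.21, 5.06 and 5.18 in 3X cerebellum. At 1X it had 4.50 in 1X liver, against 6.05 in 1X cortex and 5.84 in 1X cerebellum, so the 1X gap of -1.44 stood beside -0.02 at 3X. Slc25a1 on 94807_at (F = 38.69, adjusted p = 0.000625) had -1.19 in liver, 0.17 in cortex and -0.01 in cerebellum.

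**Figure D4:**
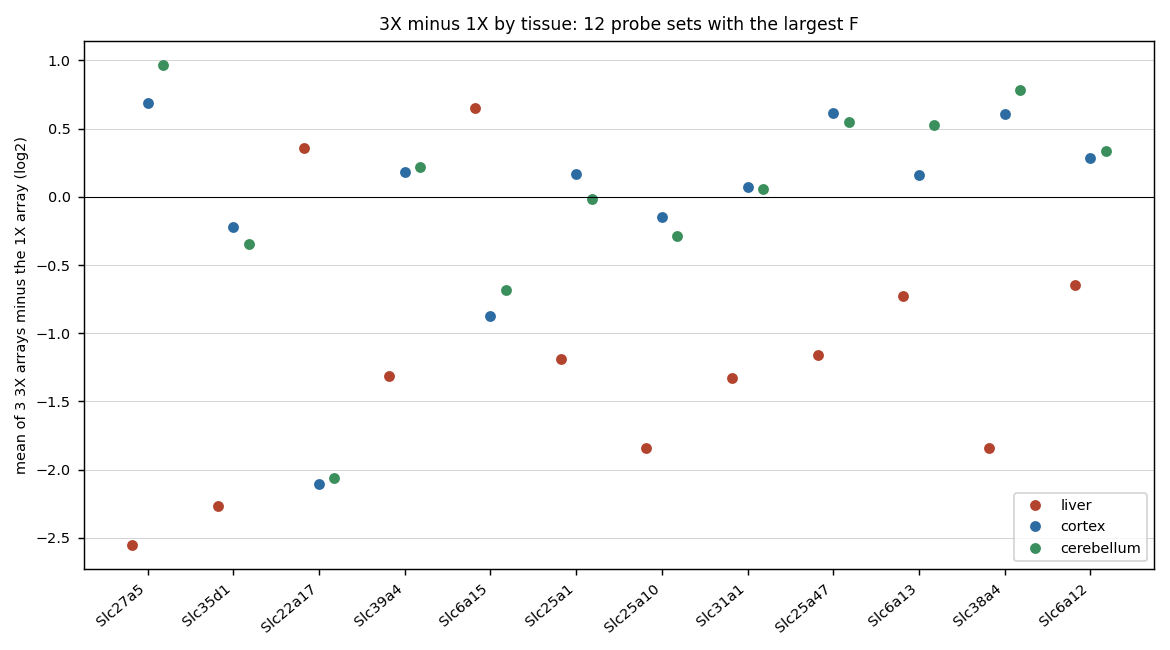
Mean of the 3 3X arrays minus the 1X array (log2, y axis) in liver, cortex and cerebellum for the 12 carrier probe sets with the largest F for tissue dependence. Liver lies below both brain regions in 10 of them and above them for Slc22a17 and Slc6a15.

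The size of the tissue difference was set side by side in the 2 procedures. Of 36 carrier probe sets at least 2-fold apart between liver and brain at 1X, 35 (97.2%) had a smaller difference at 3X, against 93.2% of 1638 such probe sets among all. Their median size was 0.67 at 3X, against 1.82 at 1X; among all probe sets the medians were 0.61 at 3X, against 1.79 at 1X. Choosing by the 1X arrays favours large 1X values, so the reverse choice is given too. Of 16 carrier probe sets at least 2-fold apart at 3X, 13 (81.2%) were smaller at 3X than at 1X, against 62.8% of 683 such probe sets among all. The medians were 1.55 at 3X, against 2.54 at 1X, for the carriers and 1.53 at 3X, against 2.31 at 1X, for all. Across the 180 carriers, which share arrays and are not independent, Pearson's r of the 3X and 1X differences was 0.854, against 0.79 over all probe sets.

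**Figure D5:**
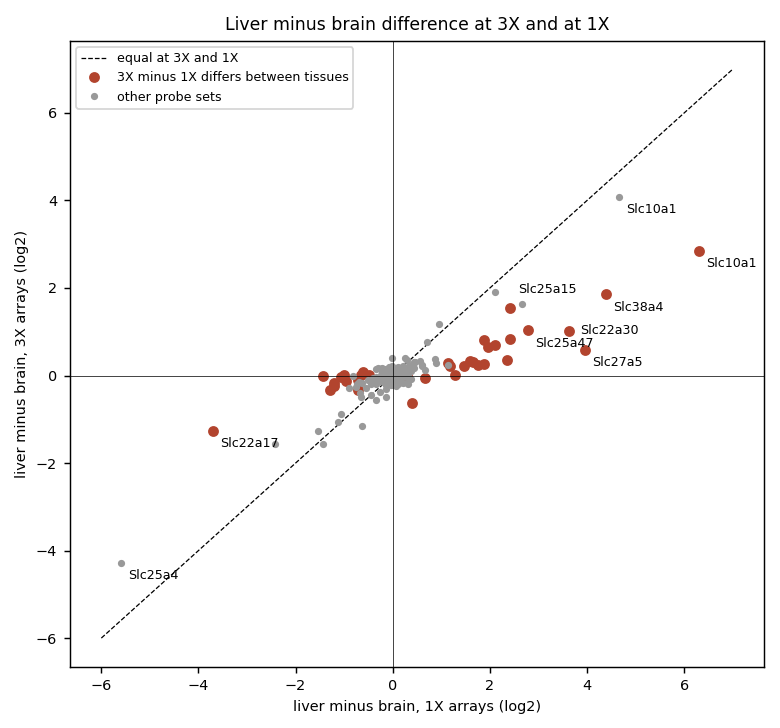
Liver minus brain difference of each carrier probe set at 1X (x axis) and 3X (y axis), both log2; red points are called for tissue dependence and the dashed line marks equal differences. Most points with large 1X differences lie closer to 0 on the 3X axis than the line, while Slc4a3 and Slc35e4 are among those on its other side.

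Opposite signs at 3X and 1X were counted among called carriers only, so no share over all probe sets stands beside these counts. By size alone, all 16 carriers at least 2-fold apart between liver and brain at 3X kept their sign at 1X. Among all probe sets, 678 of 683 did so. Of 36 called between liver and cortex at 3X, 3 had the other sign at 1X: Slc10a3 (0.35 at 3X and -0.22 at 1X), Slc44a4 (-0.33 and 0.02) and Slc6a6 (-0.77 and 0.39). Of 34 called between liver and cerebellum, 2 did so: Slc39a9 (0.34 and -0.10) and Slc6a6 (-0.49 and 0.40). Slc22a18 and Slc12a2 kept the same sign between cortex and cerebellum.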

How the data were processed

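Signals on 12 MG_U74Av2 arrays were deposited as log2 values per probe set, which the authors made with RMA, per the submitters' processing notes. Its version, its log base and the number of runs are not given in the sources used. Base 2 was inferred from the highest value, 14.46. For arrays, their number limits the precision. Without 66 control probe sets, 12422 were tested. Genes were named from the platform annotation through probe sets with 1 symbol, and substrate classes were written by hand from textbook knowledge. The members, classes, marker lists and tests were chosen with earlier results of these data known, including Napsa and Hsd3b2 of the kidney list.

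Tests were two-sided and used limma 3.58.1 under R 4.3.3 with its moderated variances, and p-values were adjusted by Benjamini-Hochberg over 12422 probe sets. Liver minus the mean of both brain regions and cortex minus cerebellum came from 1 fit of the 9 3X arrays, 3X minus 1X from 12 arrays with tissue as a term, and tissue dependence from a moderated F test over 6 group means. The genes named were drawn from the 12 largest called differences in each direction without overlap and the 6 largest F values. Up to 4 further genes per class by liver minus brain difference and 2 by level could be added, and up to 4 with opposite signs. The other called genes were added as well. Several uncalled genes that the class rule picked are not described here. Arrays were also simulated with normal noise at the 3X spread, which the 1X arrays were given too. A small set of the 12422 probe sets was changed, far fewer than were called between liver and brain in the data. Among the changed ones, 50% of liver minus brain changes of 0.5 and 98% of changes of 1 (log2) were recovered. For tissue dependence, 36% of changes of 1 and 92% of changes of 2 were. Recovery in the data can differ, since the adjustment depends on how many probe sets change. Alternatives covered scaling, filters, probe sets per gene, the variance model, a replicate block, other sets of arrays and omitting single arrays.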

Additional observations from a re-analysis of the deposited data

Results flagged for a closer look

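The 3X minus 1X shift differed among liver, cortex and cerebellum in 35 carrier probe sets by the moderated F test of the interaction, and each is given by its F. The largest were Slc27a5 (104.08), Slc35d1 (66.07), Slc22a17 (57.16), Slc39a4 (46.69), Slc6a15 (38.98) and Slc25a1 (38.69). Mitochondrial carriers added Slc25a10 (28.40), Slc25a47 (24.55), Slc25a14 (20.85), Slc25a20 (19.40), Slc25a36 (12.96) and Slc25a39 (9.87). Amino acid carriers added Slc38a4 (21.88), Slc38a2 (21.62), Slc6a6 (15.68) and Slc7a5 (12.74). Neurotransmitter carriers gave Slc6a13 (23.60), Slc6a12 (21.85), Slc6a9 (13.11), Slc1a1 (12.69) and Slc1a6 (12.35).

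Metal carriers added Slc31a1 (28.19), Slc30a4 (14.44), Slc30a3 (14.44) and Slc39a3 (9.25). Carriers of sugars, nucleosides and inorganic ions gave Slc2a3 (18.98), Slc37a4 (16.24), Slc29a1 (21.47) and Slc12a7 (20.04). Organic ion and lipid carriers gave Slc22a18 (17.71), Slc22a30 (10.43), Slc10a1 (12.49), Slc46a1 (14.81) and Slc27a1 (12.23), and the unclassified Slc66a2 had 15.69. In some of them a brain region, not the liver, lay farthest from the other tissues, as the cerebellum did for Slc1a6 and Slc6a9: for Slc1a6 the liver shift was 0.37, the cortex shift 0.18 and the cerebellum shift -0.70, and for Slc6a9 they were 0.40, 0.42 and -0.61.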

How the results depend on the processing

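The counts of called carriers stayed within 1.5 times those reported under quantile normalization, median centring, probe sets without a suffix, a mean per gene and eBayes with trend and robust settings. With probe sets above the median level alone, which tests fewer probe sets, 9 were lower in liver, 1 lower in cortex than in cerebellum and 28 higher at 3X than at 1X, and 23 depended on tissue. The additive fit of all 12 arrays gave 32 higher in liver and 1 lower in cortex. With the 3 tissues as units, 34 were higher and 14 lower at 3X. Leaving out each array in turn gave 18 to 24 higher and 15 to 19 lower in liver, 0 higher and 2 to 4 lower in cortex (4 without 3X liver replicate 3, with limma), 42 to 55 higher and 18 to 29 lower at 3X, and 31 to 41 for tissue dependence. With the replicate block, 23 were higher and 18 lower in liver, and 0 higher and 2 lower in cortex. The labels do not say that a number marks a shared batch. Deviations of same-numbered arrays correlated between -0.10 and 0.34, with all 3 pairs of replicate 3 at 0.29 to 0.34, and other pairs between -0.36 and 0.25, and not every array correlated best with its own number.

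No named carrier changed sign in any setting where it was scored. A probe set dropped by a filter was not scored there. For cortex against cerebellum, Slc12a2 was scored in 17 settings and Slc22a18 in 18. In every setting where it was scored, the call held for 27 of 39 named for liver against brain and 15 of 24 for 3X against 1X. It also held for 1 of 2 for cortex against cerebellum (Slc12a2) and 5 of 6 for tissue dependence. The cause of the losses was not tested. Slc22a12, Slc44a4, Slc30a3, Slc46a1, Slc7a2, Slc39a8 and Slc22a30 lost the liver call in several settings. Slc6a6 lost it in the fit of all 12 arrays (adjusted p = 0.114), and Slc25a39 when liver had to pass against each brain region (adjusted p = 0.177). Slc25a1 lost its tissue dependence as a mean per gene (adjusted p = 0.274). The deposited signals carry no detection call, so the limit set by background is not known.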
